A study of Mus musculus with 12 samples.

Results

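The 36 genes described here are the NRF2 system and its usual target genes: the sensor and transcription factor, the enzymes of glutathione and thioredoxin metabolism, the superoxide dismutases and peroxidases, the glutathione transferases, the quinone, heme and carbonyl enzymes, and the superoxide source Nox4 with its partner Cyba. They were taken from the counts table by gene symbol, and all 36 were found among the table's 56941 genes. Counts were present for all 36, and 34 passed the filter on low counts that left 14810 genes for testing. Cyba and Gpx3 did not pass.

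The libraries were bulk, polyadenylated RNA from 3T3-L1 cells, a wild-type mouse embryonic fibroblast line that can be differentiated into adipocytes. There were 4 conditions with 3 libraries each, all collected at 24 hours: vehicle (control); IL-4 and IL-13 at 50 ng/mL each (IL-4/13); an inflammatory mixture (Inf) of 20 ng/mL TNF-α, 50 ng/mL IL-17A and 0.5 ng/mL IL-1β; and both mixtures together (IL-4/13 + Inf). The design addresses what type 2 cytokines do to fibroblasts alone and in the presence of inflammatory cytokines. All conditions share the same line, genotype and batch label, and the sources do not say whether the 3 libraries of a condition came from separate cultures, so p-values measure the spread between these libraries, which may be technical.

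NRF2, encoded by Nfe2l2, is a transcription factor that is held at low levels by KEAP1, an adaptor that directs it to degradation. Oxidants and electrophiles modify KEAP1, NRF2 then accumulates and, paired with a small MAF protein, binds antioxidant response elements near genes for glutathione synthesis, thioredoxin metabolism and detoxification. Much of this control acts on the NRF2 protein, which RNA counts do not show, and several of the genes are also known targets of other factors, among them NF-κB for Sod2 and BACH1, a repressor that binds the same elements, for Hmox1.

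To place the counts beside the regulatory sequence, promoter windows (250 bases before to 50 after an annotated start) were taken from RefSeq on GRCm38.p6 for 30 of the 36 genes, which have 38 such windows; Gclc, Gsr, Gsta4, Hmox1, Prdx6 and Sod3 were not examined. The deposited counts carry no coordinates, and their build, GRCm39 in the submitters' processing notes, differs from that of these windows. The core of the antioxidant response element, TGACNNNGC on either strand, was found in 8 of the 38 windows (21.1%) against 12.4% of all 32851 windows. The windows belong to Nfe2l2, Gclm, Me1, Mgst1, Prdx1, Sod1, Srxn1 and Txnrd1. An NF-κB motif, GGGA, any base, then TTTCC on either strand, was in none of the 38 windows and in 0.411% of all windows, while a STAT6 motif, TTC, 4 bases of any kind, then GAA, which reads the same on both strands, was in 1 window, that of Gstm1, and in 6.95% of all windows. No match of one motif overlapped a match of another in these genes. The stretches below are shown because they pair genes that moved with cytokines (Nfe2l2, Mgst1 and Gstm1) with genes that hold the core but were not called against control (Gclm, Prdx1 and Txnrd1). Each is read 5′ to 3′ on the strand of its gene, and capitals mark the antioxidant response element core or, for Gstm1, the STAT6 motif.
Nfe2l2, chr2:75704854-75704913, minus strand: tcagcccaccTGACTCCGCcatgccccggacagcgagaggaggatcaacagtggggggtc
Mgst1, chr6:138140446-138140505, plus strand: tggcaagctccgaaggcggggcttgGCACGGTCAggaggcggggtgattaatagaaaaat
Gstm1, chr3:108018048-108018107, minus strand: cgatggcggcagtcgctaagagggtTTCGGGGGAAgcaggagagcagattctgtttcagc
Gclm, chr3:122245398-122245457, plus strand: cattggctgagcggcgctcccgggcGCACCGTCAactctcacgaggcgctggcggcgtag
Prdx1, chr4:116685441-116685500, plus strand: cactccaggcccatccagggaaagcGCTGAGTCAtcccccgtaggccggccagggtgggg
Txnrd1, chr10:82859089-82859148, plus strand: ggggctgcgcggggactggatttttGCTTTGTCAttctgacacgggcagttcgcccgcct
Of the 8 genes with the core, Nfe2l2 and Mgst1 were called up with Inf against control. Gclm, Me1, Prdx1, Sod1, Srxn1 and Txnrd1 were not called in that comparison, although Gclm was called in others described below. A match is a description of letters in these windows and not a measured binding site. Absence of a match does not show that a gene lacks a site, since only these windows and letters were searched.

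Total counts were 13446005 to 20775769 per library, and the 50 most counted genes took 11.5% to 13.0% of each library. Levels are given below as CPM (counts scaled to a common library total, here scaled with TMM factors), and 3 counts correspond to 0.171 CPM in the first control library. A gene is called up or down where edgeR's quasi-likelihood test gave a Benjamini-Hochberg adjusted p under 0.05 and the log2 fold change lay beyond 0.25. Inf replicate 3 differed more from its group than other libraries did, with a chi-square per degree of freedom of 8.05 and 8.35 against the other Inf libraries and 2.25 to 4.57 in the remaining pairs, and calls that are lost without it are named below. Fibroblast markers were all tested, and their summed level was 16666 to 19435 CPM in control, 14332 to 15123 in IL-4/13, 13834 to 15261 with Inf and 11769 to 12140 with both mixtures. The markers did not move together. From control to Inf, means fell for Col1a1 (3893 to 2493 CPM), Col1a2, Fn1, Vim and Thy1, and Col3a1 was at 1733 and 1721. Means rose for Dcn (103 to 1756 CPM), Lum (2.25 to 22.4), Pdgfra (196 to 385) and Pdgfrb (269 to 481).

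Inf moved these genes most. Against control, 13 of the 34 tested genes rose and 4 fell, where 16.3% of all tested genes rose and 15.3% fell, and their median log2 fold change was 0.11 against 0.0073 over all tested genes. IL-4/13 alone raised none and lowered 4, where 2.78% of all tested genes rose and 2.57% fell (5.35% called), with a median of -0.10. Both mixtures together raised 7 and lowered 7 against control, where 13.4% rose and 11.5% fell (24.9% called). Adding IL-4/13 to Inf raised 1 and lowered 11, where 7.55% of all tested genes rose and 7.00% fell, with a median log2 fold change of -0.18 against -0.0098 over all tested genes. The same Inf step measured on top of IL-4/13 raised 9 and lowered 7, where 13.3% rose and 11.0% fell. The response to IL-4/13 itself differed between Inf and no Inf (the interaction) for 7 genes, 6 of them more negative with Inf, where 1.52% of all tested genes were more positive and 1.59% more negative (3.11% called). Without control replicate 3, or without IL-4/13 + Inf replicate 2, 3 of the 6 negative interactions were called. In bulk RNA, fewer cells of a type and less RNA per cell cannot be told apart.

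**Figure D1:**
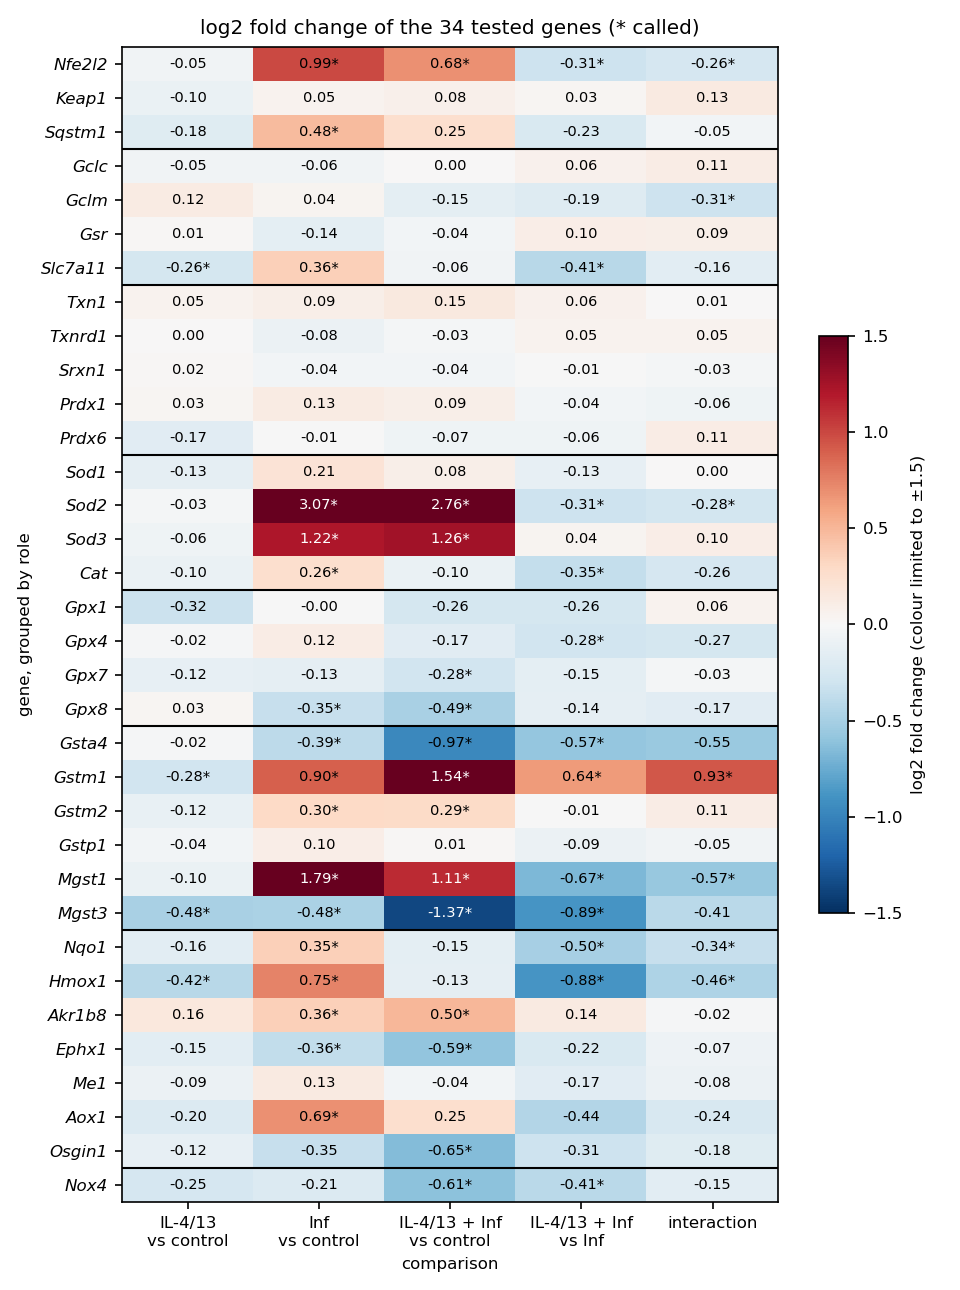
Log2 fold change of the 34 tested genes (rows, grouped by role) by comparison (columns), on a colour scale from lower to higher. The comparison of IL-4/13 + Inf against IL-4/13 is not shown. Sod2 is the highest cell with Inf (3.07), Gstm1 is the only gene called higher when IL-4/13 is added to Inf (0.64), and no gene of the thioredoxin and peroxiredoxin rows was called.

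Markers of other cell types were low beside those of fibroblasts. The macrophage markers summed to 20.7 to 24.2 CPM in control, 24.5 to 27.0 in IL-4/13, 47.1 to 62.1 with Inf and 46.4 to 52.9 with both mixtures; 5 of 12 were tested, and C1qa, C1qb and C1qc were at 0 in all 12 libraries. Most of that sum was Cd14, at a mean of 14.9 CPM in control and 44.7 with Inf. Csf1r was at 3.54 and 2.64, Cd68 at 1.01 and 1.08, and Lyz2 at 2.89 and 3.17. Mrc1, low throughout, rose, with means of 0.181 CPM in control, 0.477 in IL-4/13, 2.11 with Inf and 3.03 with both mixtures. Adipocyte markers, 4 of 10 tested, summed to 112 to 117 CPM in control, 107 to 111 in IL-4/13, 93.7 to 100.2 with Inf and 79.6 to 86.0 with both, and Lep was at 0 in all 12 libraries. Lpl held most of that sum, at means of 79.3 CPM in control and 50.8 with both mixtures, while Fabp4 was at 11.3 in control, 30.1 with Inf and 19.4 with both. Their part in the results below was not tested.

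Among the regulators, the RNA of NRF2 itself rose with Inf. Nfe2l2 (ENSMUSG00000015839) stood at 111, 109 and 105 CPM in control, at 107, 103 and 103 in IL-4/13, at 212, 221 and 214 with Inf and at 174, 171 and 176 with both mixtures. All 3 Inf libraries lay above every other library, and the IL-4/13 + Inf libraries lay between them and the control libraries without overlap. The rise with Inf was 0.99 on the log2 scale (SE 0.044, adjusted p = 7.3e-18, edgeR's quasi-likelihood test), a 1.98-fold difference. Adding IL-4/13 to Inf changed Nfe2l2 by -0.31 (SE 0.043, adjusted p = 2.9e-06), while the value of IL-4/13 alone was -0.05 (adjusted p = 0.58). The interaction was -0.26 (SE 0.063, adjusted p = 0.016) and was called in 8 of 12 fits that left out 1 library: it was lost without control replicate 3, IL-4/13 replicate 1, Inf replicate 2 or IL-4/13 + Inf replicate 2, with adjusted p up to 0.069.

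Keap1 (ENSMUSG00000003308), the adaptor, was called in no comparison. Its level was 52.2, 54.7 and 61.8 CPM in control, 47.5, 53.1 and 57.3 in IL-4/13, 61.5, 55.3 and 58.0 with Inf and 58.0, 62.8 and 57.4 with both mixtures. The Inf and control libraries overlapped, and the 95% interval of their difference was -0.09 to 0.20 on the log2 scale. A transcript on the opposite strand covers 10.9% of its exonic bases, and the strand setting of the counting is not given in the sources used here.

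Sqstm1 (ENSMUSG00000015837) encodes p62, a cargo receptor of autophagy that competes with NRF2 for KEAP1. It stood at 488, 492 and 516 CPM in control, 440, 445 and 435 in IL-4/13, 712, 676 and 693 with Inf and 601, 574 and 603 with both mixtures. The 4 conditions did not overlap. Inf raised it by 0.48 (SE 0.039, adjusted p = 1.4e-11). The differences of IL-4/13 against control (-0.18, adjusted p = 0.0021) and of IL-4/13 + Inf against Inf (-0.23, adjusted p = 5.1e-05) passed edgeR's quasi-likelihood test but not the limit of 0.25 on the log2 fold change. Against control, IL-4/13 + Inf gave 0.25 (adjusted p = 5.0e-06), just inside that limit, and was called under 8 of the alternative fits. An opposite-strand gene, Mrnip, covers 17.3% of its exonic bases.

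The superoxide dismutases gave the highest rise of the whole group. Sod2 (ENSMUSG00000006818), the mitochondrial manganese enzyme that turns superoxide into hydrogen peroxide, was at 68.3, 71.9 and 66.7 CPM in control, 67.1, 68.7 and 67.04 in IL-4/13, 601, 553 and 583 with Inf and 472, 453 and 480 with both mixtures. Both conditions with Inf lay far above both without, and the IL-4/13 + Inf libraries all lay below the Inf libraries. The rise with Inf was 3.07 (SE 0.047, adjusted p = 9.0e-30, edgeR's quasi-likelihood test), or 8.39-fold. With IL-4/13 added to Inf, Sod2 differed by -0.31 (SE 0.042, adjusted p = 2.1e-06), and with IL-4/13 alone the value was -0.03 (adjusted p = 0.82). The interaction was -0.28 (adjusted p = 0.0093) and lay inside the limit of 0.25 without Inf replicate 1, at -0.24.

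Sod3 (ENSMUSG00000072941), the secreted enzyme of the extracellular matrix, shared the rise and not the fall. It measured 270, 222 and 248 CPM in control, 220, 220 and 268 in IL-4/13, 611, 541 and 565 with Inf and 594, 570 and 602 with both mixtures. Inf raised it by 1.22 (SE 0.087, adjusted p = 3.5e-07), without overlap. IL-4/13 + Inf and Inf overlapped, with a difference of 0.04 and a 95% interval of -0.15 to 0.23. The cytosolic Sod1 gave 0.21 with Inf (adjusted p = 0.0012), inside the limit, and was called in no comparison.

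Catalase (Cat), which breaks down hydrogen peroxide in peroxisomes, had means of 65.9 CPM in control, 61.6 in IL-4/13, 78.6 with Inf and 61.5 with both mixtures. It rose with Inf by 0.26 (adjusted p = 8.4e-04, edgeR's quasi-likelihood test), a value just past the limit that fell inside it without control replicate 1 or Inf replicate 3 (lowest value 0.21), and with scaling by library size alone or no low-count filter. IL-4/13 on top of Inf changed it by -0.35 (adjusted p = 4.6e-05), a call kept in all 12 fits that left out a library.

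**Figure D2:**
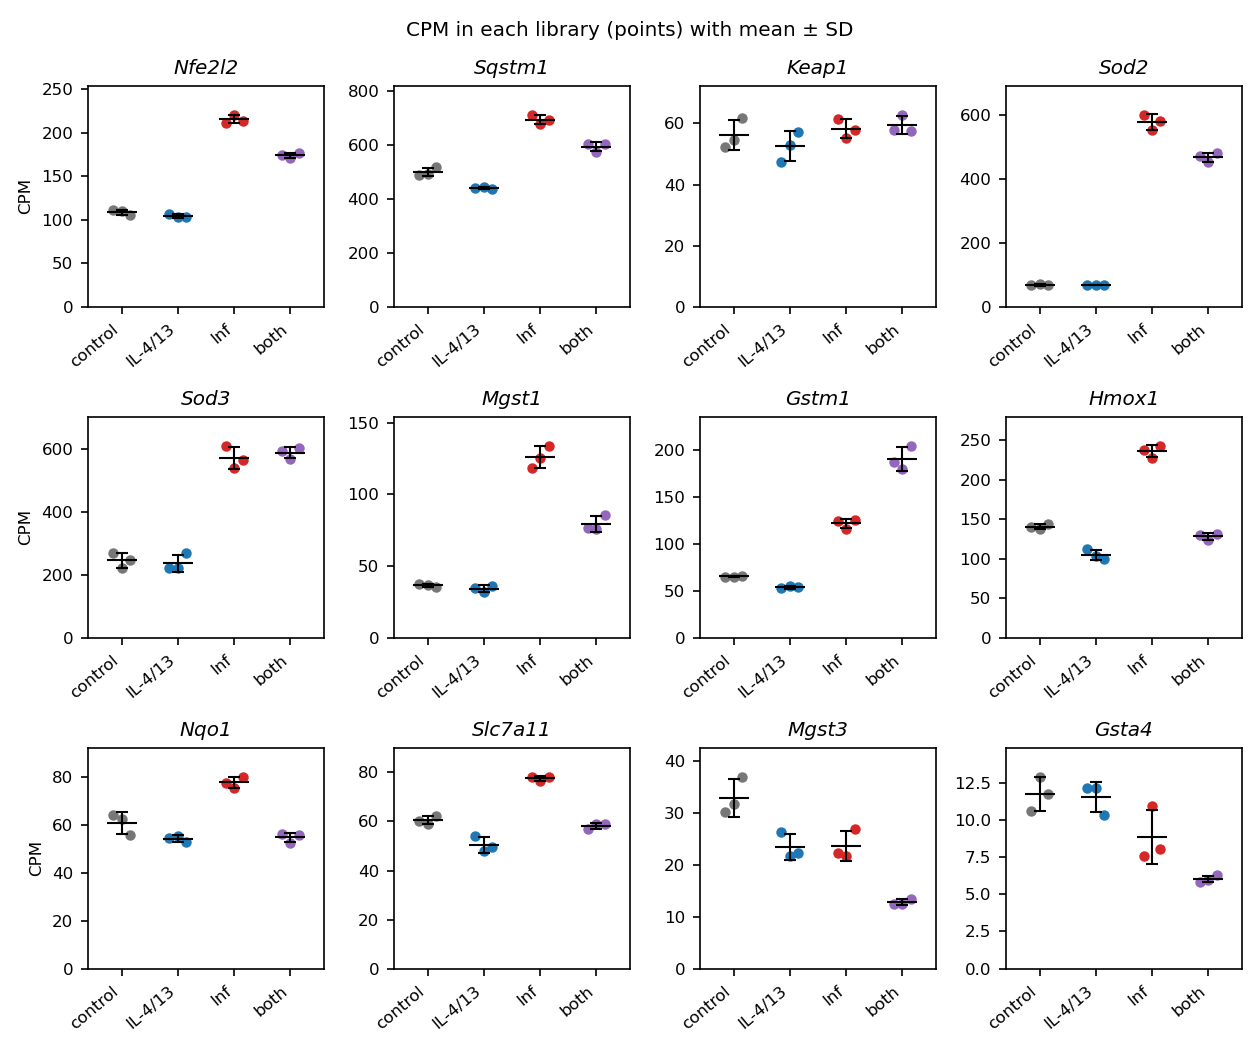
CPM of 12 genes in each library (points) with mean ± SD of 3 libraries per condition; every axis starts at 0, and "both" is IL-4/13 + Inf. Nfe2l2, Sod2, Mgst1, Hmox1, Nqo1 and Slc7a11 are highest in Inf alone, Gstm1 is highest with both mixtures, Mgst3 is lowest with both, and Keap1 overlaps between control and Inf.

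The classical NRF2 targets Hmox1, Nqo1 and Slc7a11 rose with Inf, and with IL-4/13 added none of them was called different from control. Hmox1 (ENSMUSG00000005413), heme oxygenase-1, which opens the heme ring to biliverdin, was at 140, 137 and 144 CPM in control, 112, 103 and 99.4 in IL-4/13, 238, 228 and 243 with Inf and 130, 124 and 131 with both mixtures. The order was IL-4/13, then IL-4/13 + Inf, then control, then Inf, with no overlap between any of them. Inf raised it by 0.75 (SE 0.048, adjusted p = 5.2e-14, edgeR's quasi-likelihood test). IL-4/13 lowered it both alone (-0.42, SE 0.050, adjusted p = 3.7e-07) and on top of Inf (-0.88, SE 0.048, adjusted p = 1.3e-14), and the second step was the larger, with an interaction of -0.46 (SE 0.069, adjusted p = 6.3e-05) that was called in all 12 fits leaving out a library. Against control, IL-4/13 + Inf gave -0.13 (adjusted p = 0.036), inside the limit.

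Nqo1 (ENSMUSG00000003849), the quinone reductase that is the usual reporter of NRF2 activity, was at 64.4, 62.5 and 55.8 CPM in control, 54.8, 55.5 and 52.9 in IL-4/13, 77.6, 75.6 and 80.2 with Inf and 56.2, 52.7 and 55.7 with both mixtures. The Inf libraries were above all others, and the other 3 conditions lay within 52.7 to 64.4 CPM. Inf raised it by 0.35 (SE 0.059, adjusted p = 1.2e-05) and IL-4/13 on top of Inf changed it by -0.50 (SE 0.059, adjusted p = 1.3e-07). IL-4/13 alone gave -0.16 (adjusted p = 0.10), and Inf on top of IL-4/13 gave 0.01 (95% interval -0.11 to 0.14). The interaction, -0.34 (adjusted p = 0.017), was lost without control replicate 3, IL-4/13 replicate 2 or IL-4/13 + Inf replicate 2.

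Slc7a11 (ENSMUSG00000027737), the cystine importer that feeds glutathione synthesis, was at 60.1, 59.2 and 62.2 CPM in control, 54.1, 47.9 and 49.5 in IL-4/13, 78.2, 76.5 and 78.1 with Inf and 56.9, 58.97 and 58.8 with both mixtures. IL-4/13 libraries were lowest and Inf libraries highest, with no overlap between conditions. Inf raised it by 0.36 (SE 0.056, adjusted p = 4.6e-06), and IL-4/13 lowered it alone (-0.26, SE 0.058, adjusted p = 0.0035) and on top of Inf (-0.41, SE 0.056, adjusted p = 1.6e-06, edgeR's quasi-likelihood test). These steps were not shown to differ (interaction -0.16, adjusted p = 0.39). The call for IL-4/13 alone was lost, with values inside the limit, without control replicate 3, IL-4/13 replicate 2 or IL-4/13 replicate 3.

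In contrast to the cystine importer, neither subunit of glutamate-cysteine ligase, an enzyme of glutathione synthesis, was called with Inf against control. Gclc (ENSMUSG00000032350), the catalytic subunit of glutamate-cysteine ligase, which carries the limiting step, was at 35.3, 39.3 and 38.5 CPM in control, 37.3, 36.9 and 34.6 in IL-4/13, 36.2, 37.1 and 35.3 with Inf and 35.3, 42.7 and 35.3 with both mixtures. All 4 conditions overlapped. The Inf difference was -0.06 with a 95% interval of -0.21 to 0.10. Gsr, glutathione reductase of the recycling step, had means of 111, 112, 101 and 108 CPM in the same order and was called in no comparison. Its Inf difference of -0.14 (adjusted p = 0.033, edgeR's quasi-likelihood test) lay inside the limit.

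Gclm (ENSMUSG00000028124), the modifier subunit of the same ligase and one of the genes with an antioxidant response element core shown above, was at 64.1, 68.4 and 63.6 CPM in control, 73.7, 68.3 and 71.2 in IL-4/13, 66.3, 69.3 and 65.9 with Inf and 59.4, 57.0 and 60.5 with both mixtures. The libraries with both mixtures were below all 9 others. The Inf difference from control was 0.04 (95% interval -0.07 to 0.15), and IL-4/13 gave 0.12 without Inf (adjusted p = 0.20) and -0.19 with it (adjusted p = 0.014, inside the limit). The difference of these steps was -0.31 (SE 0.079, adjusted p = 0.020, edgeR's quasi-likelihood test) and held in 6 of 12 fits that left out 1 library; the losses came without control replicate 1 or 3, IL-4/13 replicate 1, Inf replicate 2, or IL-4/13 + Inf replicate 1 or 2, with adjusted p up to 0.080. Inf on top of IL-4/13 changed Gclm by -0.27 (adjusted p = 3.1e-04), a value that came inside the limit without IL-4/13 replicate 1 or IL-4/13 + Inf replicate 2.

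No member of the thioredoxin and peroxiredoxin group, 0 of 5 tested, was called in any of the 6 contrasts. Of all tested genes, 43.4% were called in at least 1 of these contrasts. Txnrd1 (ENSMUSG00000020250), thioredoxin reductase, was at 201, 216 and 201 CPM in control, 211, 204 and 204 in IL-4/13, 189, 202 and 192 with Inf and 207, 202 and 197 with both mixtures. Srxn1 (ENSMUSG00000032802), sulfiredoxin, which restores over-oxidized peroxiredoxins, was at 74.6, 82.9 and 75.0 CPM in control, 78.0, 76.6 and 81.2 in IL-4/13, 76.2, 77.8 and 72.6 with Inf and 78.1, 71.1 and 76.5 with both mixtures. For Srxn1 all conditions overlapped, and for Txnrd1 the Inf libraries overlapped control and lay below the IL-4/13 libraries. The 95% interval of Inf against control was -0.17 to 0.01 for Txnrd1 and -0.15 to 0.08 for Srxn1, so a rise of the size seen for Nqo1 (0.35) lay outside both. Means over control, IL-4/13, Inf and the combined condition were 445, 462, 474 and 495 CPM for thioredoxin (Txn1). They were 408, 415, 445 and 434 for Prdx1, and 169, 150, 168 and 161 for Prdx6. Some differences passed edgeR's quasi-likelihood test but lay inside the limit. These were -0.17 for Prdx6 with IL-4/13 (adjusted p = 0.031), 0.15 for Txn1 with both mixtures against control (adjusted p = 0.031) and 0.13 for Prdx1 with Inf (adjusted p = 0.033). Prdx1 shares 10.9% of its 50-base stretches with other annotated genes.

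**Figure D3:**
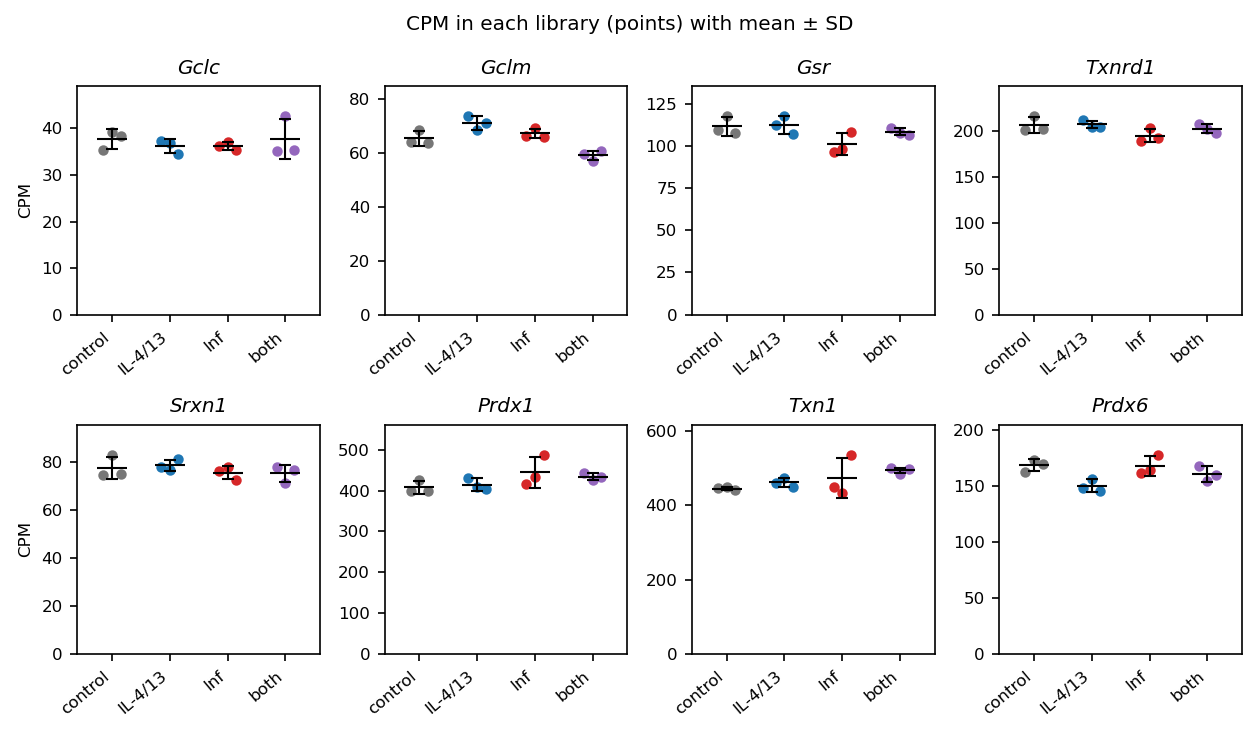
CPM of 8 genes of glutathione synthesis and the thioredoxin system in each library (points), with mean ± SD of 3 libraries per condition; "both" is IL-4/13 + Inf and every axis starts at 0. The Inf libraries overlap the control libraries in all 8 panels, and Gclm is lowest with both mixtures (57.0 to 60.5 CPM).

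Altogether 22 of the 34 tested genes were called in at least 1 of the 6 contrasts, as were 43.4% of all tested genes, and 12 in none: Keap1, Gclc, Gsr, Txn1, Txnrd1, Srxn1, Prdx1, Prdx6, Sod1, Gpx1, Gstp1 and Me1. The 95% intervals of these 12 for Inf against control spanned -0.32 to 0.32 on the log2 scale, the outermost bounds being those of Gpx1, a gene of 7.17 to 8.96 CPM in the group means. Per kilobase of exon, several of the 12 were among the more abundant genes of the system. The length used was that of all annotated exons of a gene merged, which can exceed the transcript expressed, so the order is approximate. Txn1 led in control at 424 CPM per kb, followed by Gpx8 and Sqstm1 at 149 each and Prdx1 at 134, and it still led in Inf at 451, followed by Sqstm1 at 207 and Sod3 at 153. All 36 genes summed to 3899 ± 28.0 CPM in control, 3724 ± 15.2 in IL-4/13, 5397 ± 190 with Inf and 4953 ± 114 with both mixtures (SD, n = 3). The largest parts of the difference between Inf and control came from Sod2 (510 CPM), Sod3 (326 CPM) and Sqstm1 (195 CPM). In that comparison 17 of the 34 tested genes were not called, so the sum does not describe a rise of the whole group.

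The glutathione transferases, which couple glutathione to electrophiles, moved in opposite directions. With Inf 3 of 6 rose and 2 fell, beside 16.3% and 15.3% of all tested genes. Mgst1 (ENSMUSG00000008540), a membrane-bound transferase and peroxidase, was at 37.6, 36.7 and 35.4 CPM in control, 34.7, 31.6 and 36.1 in IL-4/13, 119, 126 and 134 with Inf and 76.4, 75.9 and 85.5 with both mixtures. Levels with both mixtures lay between control and Inf and overlapped neither. Inf raised it by 1.79 (SE 0.064, adjusted p = 1.7e-20, edgeR's quasi-likelihood test), or 3.45-fold, and IL-4/13 on top of Inf changed it by -0.67 (SE 0.059, adjusted p = 4.8e-10). IL-4/13 alone gave -0.10 (adjusted p = 0.46), and the interaction of -0.57 (SE 0.091, adjusted p = 1.4e-04) was called in all 12 fits that left out a library.

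Gstm1 (ENSMUSG00000058135), a cytosolic mu-class transferase, was the only member that IL-4/13 moved in opposite directions without and with Inf, with both steps called. It was at 64.7, 65.1 and 66.3 CPM in control, 52.5, 55.0 and 53.6 in IL-4/13, 124, 116 and 125 with Inf and 187, 180 and 204 with both mixtures. The conditions did not overlap, with IL-4/13 lowest and both mixtures highest. IL-4/13 alone changed it by -0.28 (SE 0.057, adjusted p = 9.0e-04), Inf raised it by 0.90 (SE 0.054, adjusted p = 8.8e-15), and IL-4/13 on top of Inf raised it by a further 0.64 (SE 0.051, adjusted p = 4.3e-11). The interaction was 0.93 (SE 0.076, adjusted p = 2.0e-09) and held in all 12 fits that left out a library. Of the 50-base stretches of Gstm1, 23.1% occur in other annotated genes, Gstm3 among them, so its counts could hold reads of these relatives or lose reads to them. Its neighbour Gstm2 rose with Inf by 0.30 and did not follow this pattern: the difference of IL-4/13 + Inf from Inf was -0.01 (95% interval -0.12 to 0.10).

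Mgst3 (ENSMUSG00000026688), a second membrane-bound transferase, was called down in every pairwise comparison tested, which did not include Inf against IL-4/13. It was at 30.2, 31.7 and 37.0 CPM in control, 26.4, 21.8 and 22.3 in IL-4/13, 22.3, 21.8 and 27.0 with Inf and 12.5, 12.4 and 13.5 with both mixtures. IL-4/13 and Inf overlapped each other, both lay below control, and both mixtures together lay below everything else. The log2 difference from control was -0.48 with either mixture (adjusted p = 8.9e-04 for IL-4/13 and 1.4e-04 for Inf) and -1.37 with both (SE 0.10, adjusted p = 2.1e-12, edgeR's quasi-likelihood test). The interaction was -0.41 (adjusted p = 0.12).

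Gsta4 (ENSMUSG00000032348), the transferase that clears the lipid peroxidation product 4-hydroxynonenal, was at 10.6, 12.9 and 11.8 CPM in control, 12.2, 12.1 and 10.4 in IL-4/13, 7.58, 11.0 and 8.06 with Inf and 5.85, 5.96 and 6.28 with both mixtures. Inf replicate 2 overlapped the control libraries, and the libraries with both mixtures were below all others. The fall with Inf (-0.39, adjusted p = 0.016) was lost without control replicate 2, Inf replicate 1 or Inf replicate 3, with adjusted p up to 0.094. The fall of IL-4/13 + Inf from control was -0.97 (SE 0.14, adjusted p = 1.1e-06) and was called in all 12 fits. From Inf it was -0.57 (adjusted p = 0.0030), a call lost without Inf replicate 2 (adjusted p = 0.065). Gstp1, for which 62.3% of 50-base stretches recur in Gstp2 and a pseudogene, had means of 129, 125, 138 and 130 CPM and was called in no comparison.

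Of the genes of the glutathione peroxidase family, 0 of 4 tested rose in any contrast. Per contrast, 1.52% to 16.3% of all tested genes rose, so few rises among 4 genes would be usual. Gpx8 (ENSMUSG00000021760), which sits in the endoplasmic reticulum, was at 152, 158 and 158 CPM in control, 160, 162 and 155 in IL-4/13, 114, 115 and 139 with Inf and 119, 109 and 105 with both mixtures. Both conditions with Inf were below both without it. Inf changed it by -0.35 (SE 0.060, adjusted p = 2.8e-05), and IL-4/13 + Inf overlapped Inf, with a difference of -0.14 (adjusted p = 0.10). Gpx7, its close relative, fell with both mixtures together against control (-0.28, adjusted p = 0.0099), a call lost without control replicate 1 or IL-4/13 + Inf replicate 1 (adjusted p up to 0.095). Gpx4, the phospholipid hydroperoxidase that protects from ferroptosis, fell when IL-4/13 was added to Inf (means 47.0 and 38.6 CPM, -0.28, adjusted p = 0.0053). That call was lost without Inf replicate 3 or IL-4/13 + Inf replicate 1 (adjusted p up to 0.054), and 61.7% of the 50-base stretches of Gpx4 occur in pseudogenes. Gpx3, the secreted form, had at most 9 counts in a library and was not tested.

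The remaining detoxification enzymes split likewise. Akr1b8, an aldo-keto reductase of lipid aldehydes, rose with Inf from a mean of 116 to 149 CPM (0.36, adjusted p = 3.4e-06) and stood at 164 CPM with both mixtures, above Inf in all 3 libraries, although that step (0.14, adjusted p = 0.063) was not called. Ephx1 (ENSMUSG00000038776), microsomal epoxide hydrolase, was at 96.4, 94.96 and 100.3 CPM in control, 89.1, 82.5 and 90.7 in IL-4/13, 73.4, 76.9 and 76.3 with Inf and 65.3, 61.4 and 67.6 with both mixtures, and the conditions did not overlap. Inf changed it by -0.36 (SE 0.054, adjusted p = 1.9e-06, edgeR's quasi-likelihood test), and the further difference with IL-4/13 added was -0.22 (adjusted p = 0.0031), inside the limit. Aox1, aldehyde oxidase, was low, with means of 3.31 CPM in control and 5.33 in Inf. Its rise (0.69, adjusted p = 0.012) came with overlapping libraries and was lost without control replicate 1 or Inf replicate 1 (adjusted p up to 0.11). Osgin1, a stress-induced growth inhibitor, fell with both mixtures against control (5.90 to 3.74 CPM, -0.65, adjusted p = 0.0049). Me1, malic enzyme, a source of NADPH, had means of 91.4, 85.9, 100.2 and 88.7 CPM and was called in no comparison. Its values of 0.13 with Inf (adjusted p = 0.039) and -0.17 with IL-4/13 added to Inf (adjusted p = 0.013, edgeR's quasi-likelihood test) lay inside the limit. Of its 50-base stretches, 26.5% recur in other annotated genes.

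Nox4 (ENSMUSG00000030562), a NADPH oxidase that makes hydrogen peroxide and is the fibroblast member of its family, was the only tested gene of the superoxide source. It was at 8.91, 9.99 and 9.60 CPM in control, 8.68, 7.65 and 7.50 in IL-4/13, 7.44, 7.99 and 9.21 with Inf and 5.41, 6.75 and 6.55 with both mixtures. The libraries with both mixtures were lowest, and Inf overlapped control. IL-4/13 + Inf differed from control by -0.61 (SE 0.13, adjusted p = 4.7e-04), called in all 12 fits that left out a library. The fall from Inf (-0.41, adjusted p = 0.029) was lost without Inf replicate 3 or IL-4/13 + Inf replicate 1, and with DESeq2 or a fit of the compared groups only. Cyba, the membrane partner subunit of NADPH oxidases, had at most 2 counts in any library, under the floor of 3 counts.

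Pairs of comparisons that share no library allow the same step to be read in separate samples. Addition of Inf was measured once over control and once over IL-4/13. The genes called up numbered 13 and 9, and 9 were in both lists (69.2% and 100% of them): Nfe2l2, Sqstm1, Sod2, Sod3, Mgst1, Gstm1, Gstm2, Hmox1 and Akr1b8. Over all tested genes the shares of the 2 lists were 65.4% and 80.3%. Called up only without IL-4/13 were Nqo1, Slc7a11, Cat and Aox1, of which only Nqo1 had a called interaction. Those called down numbered 4 and 7, and 4 were in both (100% and 57.1%, against 54.9% and 76.5% over all tested genes): Mgst3, Gsta4, Gpx8 and Ephx1. For addition of IL-4/13, the lists of falls held 4 genes without Inf and 11 with it, and 3 were in both (75.0% and 27.3%, against 56.3% and 20.6% over all tested genes): Hmox1, Mgst3 and Slc7a11. Of the 13 genes that rose with Inf, 7 fell when IL-4/13 was added, 1 rose (Gstm1) and 5 were not called. Of all 2420 genes that rose with Inf, 21.9% fell and 6.94% rose at that step. Those 13 rises share the Inf libraries with the second step, so the counts describe these values and are no independent evidence of a reversal.

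**Figure D4:**
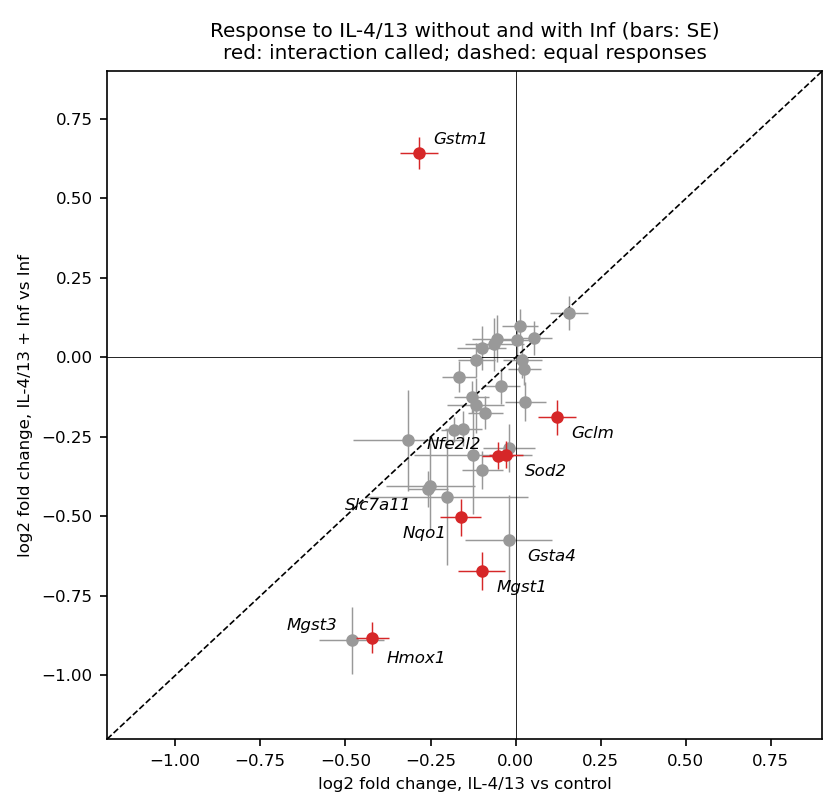
Log2 fold change of IL-4/13 against control (x axis) and of IL-4/13 + Inf against Inf (y axis) for the 34 tested genes, with SE bars; red points have a called interaction and the dashed line marks equal responses. Hmox1, Mgst1, Nqo1, Sod2, Nfe2l2 and Gclm lie below the line, and Gstm1 lies above it at -0.28 and 0.64.

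Beyond the 36 genes, a list of 105 further genes of the same pathway was examined, of which 80 were tested. With Inf 30 rose and 10 fell (31.6% of all tested genes were called), with IL-4/13 alone 2 rose (4 without control replicate 2) and 4 fell (7.50% called, against 5.35% of all tested genes), and with IL-4/13 added to Inf 6 rose and 13 fell (23.8%, against 14.6% of all tested genes). Bach1, the repressor that competes for antioxidant response elements, was at 49.9, 55.4 and 54.7 CPM in control, 63.1, 63.7 and 63.1 in IL-4/13, 73.9, 72.3 and 61.3 with Inf and 122, 117 and 115 with both mixtures. The libraries with both mixtures were far above the rest, while Inf replicate 3 lay below the IL-4/13 libraries. Inf raised Bach1 by 0.38 (SE 0.063, adjusted p = 1.4e-05) and IL-4/13 on top of Inf raised it by 0.77 (SE 0.060, adjusted p = 3.7e-11, edgeR's quasi-likelihood test), against 0.25 for IL-4/13 alone (adjusted p = 0.012, inside the limit but called under 6 of the alternative fits). The interaction was 0.52 (SE 0.088, adjusted p = 3.0e-04). Bach2, its relative, fell with Inf (-0.68, adjusted p = 0.015) at means of 4.17 and 2.61 CPM, a call lost without control replicate 1 or 3 (adjusted p up to 0.099).

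Xdh, xanthine dehydrogenase, which can act as an oxidase that makes superoxide, was the highest rise of the list with IL-4/13 alone. Its libraries were at 115, 110 and 123 CPM in control, 246, 248 and 243 in IL-4/13, 339, 337 and 304 with Inf and 518, 517 and 487 with both mixtures, with no overlap. The rises were 1.08 for IL-4/13 (SE 0.049, adjusted p = 1.1e-16), 1.49 for Inf (SE 0.049, adjusted p = 2.6e-21) and 0.64 for IL-4/13 on top of Inf (SE 0.047, adjusted p = 9.9e-12). Glrx, glutaredoxin, which removes glutathione from proteins, had means of 21.5 CPM in control, 25.1 in IL-4/13, 148 with Inf and 199 with both mixtures. It rose by 2.78 with Inf (adjusted p = 1.5e-25) and by 0.43 with IL-4/13 added (adjusted p = 2.5e-07). Aldh3a1, an aldehyde dehydrogenase, rose by 3.59 with Inf (adjusted p = 7.3e-12) from a mean of 0.437 CPM to 5.36, and by 0.61 when IL-4/13 was added (adjusted p = 0.013; 0.057 without Inf replicate 3).

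Among genes of glutathione turnover, Ggct, which splits gamma-glutamyl dipeptides, rose with IL-4/13 alone (0.84, adjusted p = 0.0012) and on top of Inf (0.96, adjusted p = 3.3e-05), at means of 2.97 CPM in control and 7.23 with both. Oplah, 5-oxoprolinase, the next enzyme of the same cycle, moved the other way, by -0.61 with IL-4/13 alone (adjusted p = 0.016) and by -0.80 on top of Inf (adjusted p = 5.7e-05, edgeR's quasi-likelihood test), and rose by 0.93 with Inf. The fall of Oplah with IL-4/13 alone was lost without control replicate 2 or IL-4/13 replicate 1 or 3 (adjusted p up to 0.097). Chac1, which degrades glutathione inside the cell, fell with IL-4/13 (-0.32, adjusted p = 0.0014) and with Inf (-0.96, adjusted p = 4.6e-13). Several detoxification genes rose with Inf and fell when IL-4/13 was added. Of all genes that rose with Inf, 21.9% fell at the second step, which shares the Inf libraries with the first. Blvrb, biliverdin reductase B, gave 0.26 and -0.32 and also fell with IL-4/13 alone (-0.39, adjusted p = 8.2e-04), and Mgst2, another membrane-bound transferase, gave 1.29 and -0.71. Pir, an iron-binding nuclear protein, gave 0.43 and -0.65. All 6 of these steps were called, but the rise of Blvrb came inside the limit without control replicate 3 or Inf replicate 3 or with library size alone, and that of Pir was lost without control replicate 1 or 3 or Inf replicate 2 (adjusted p up to 0.13). Akr7a5, an aldehyde reductase, fell with IL-4/13 alone (-0.32, adjusted p = 0.034) and on top of Inf (-0.28, adjusted p = 0.026). These calls held in 7 and 8 of 12 fits that left out a library: the first was lost without any 1 of the control libraries or IL-4/13 replicate 1 or 2, and the second without Inf replicate 1 or 2 or IL-4/13 + Inf replicate 2 or 3. Akr1c14, a hydroxysteroid dehydrogenase, fell with Inf (-0.80, adjusted p = 1.3e-05) and further with IL-4/13 added (-0.63, adjusted p = 0.0021).

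**Figure D5:**
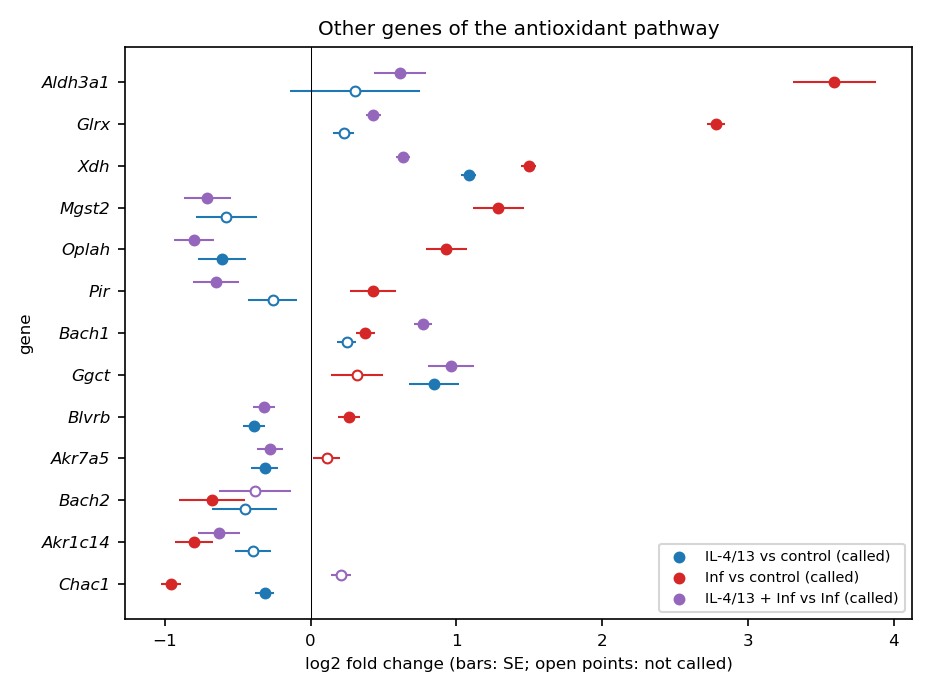
Log2 fold change (x axis, bars SE) of 13 further pathway genes (y axis) for each mixture against control and for both mixtures against Inf; filled points were called and open points were not. Aldh3a1 (3.59) and Glrx (2.78) are highest with Inf, Chac1 (-0.96) is lowest with Inf, and Bach1, Xdh, Ggct, Glrx and Aldh3a1 were called higher when IL-4/13 was added to Inf.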

How the data were processed

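Polyadenylated RNA of 12 libraries of 3T3-L1 cells was sequenced from stranded libraries, with 3 libraries in each of 4 conditions. The authors deposited raw read counts per gene, without normalization; the submitters' processing notes name STAR, featureCounts and GRCm39, and versions and strand setting are not given in the sources used here. Conditions were taken from the labels, and 0 columns were left without a sample. Genes were kept with edgeR's filterByExpr (minimum count 10, minimum total 15), scaled with TMM, and fitted with edgeR's robust quasi-likelihood model to all 12 libraries with 1 term per condition (R 4.3.3, edgeR 4.0.16, limma 3.58.1). The study's methods name DESeq2, which served as an alternative (1.42.0). Calls required a Benjamini-Hochberg adjusted p under 0.05 over all tested genes of a contrast and a log2 fold change beyond 0.25. Standard errors and 95% intervals come from the same fit. No set test was run. Fits were tried on simulated data with known changes in 195 tested genes. For IL-4/13 + Inf against Inf, edgeR recovered 85.1% of them and DESeq2 82.1%. For the interaction these shares were 74.4% and 70.3%. Among unchanged genes, edgeR called 10 and 7 in these contrasts. The shares apply to the simulated sizes only and do not show how often smaller changes would be found. Sequence and exon lengths came from reference tables of GRCm38.p6, with Python 3.11.15, numpy 2.4.6, pandas 2.3.3 and matplotlib 3.10.9.

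The genes, lists and tests were chosen with earlier results of these data known. Values in every library are given for Nfe2l2, Keap1, Sqstm1, Nqo1, Hmox1, Gclc, Gclm, Slc7a11, Txnrd1, Srxn1, Sod2 and Nox4, and for up to 5 highest rises and 5 deepest falls called in either mixture against control, in both mixtures against Inf alone and in the interaction. Of other pathway genes, up to 3 of each direction in the first 3 of these were named. Bach1 was also given in every library. Alternatives were DESeq2, its size factors in edgeR, library size alone, no filter, a mean of at least 50 counts, only the compared groups, a replicate block, a limit of 0.5 on the log2 fold change, and leaving out each library. Counts of reads limit precision for low genes, and intervals cover the spread of these libraries only.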

Additional observations from a re-analysis of the deposited data

Results flagged for a closer look

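For 7 of the 36 genes and 3 of the further genes named, the response to IL-4/13 differed between libraries with and without Inf in the interaction contrast (edgeR's quasi-likelihood test). The value is the log2 response to IL-4/13 with Inf minus that without Inf. It was 0.93 for Gstm1, the only one of the 7 that was positive. It was -0.57 for Mgst1, -0.46 for Hmox1, -0.34 for Nqo1, -0.31 for Gclm, -0.28 for Sod2 and -0.26 for Nfe2l2. Of these 6 negative values, 3 were called without control replicate 3 and 3 without IL-4/13 + Inf replicate 2. Among the further genes it was 0.52 for Bach1, 0.52 for Chac1 (adjusted p = 8.1e-04) and -0.45 for Xdh (adjusted p = 6.3e-05). For Xdh the response to IL-4/13 was a rise both without Inf (1.08) and with it (0.64), and Chac1 gave -0.32 without Inf and 0.21 with it (adjusted p = 0.031, inside the limit of 0.25). These are differences of log2 values, and Xdh was at a higher level with Inf before IL-4/13 was added. No cause was tested.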

How the results depend on the processing

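Over all alternatives, 3950 values of the 36 genes kept their call or its absence, 83 lost a call, 13 gained one, and 0 called values changed sign. For the other pathway genes these numbers were 9225, 171, 66 and 0. With a limit of 0.5 in place of 0.25 on the log2 fold change, by construction fewer of the 36 genes were called. The falls then numbered 0 for either mixture against control (0 for IL-4/13, 0 for Inf), 5 for both mixtures against Inf, 4 for IL-4/13 + Inf against IL-4/13 and 1 for the interaction, and the rises numbered 7 with Inf alone and 5 with Inf on top of IL-4/13. Leaving out 1 library at a time gave 3 to 6 negative interactions, with 3 without control replicate 3 and 3 without IL-4/13 + Inf replicate 2. It gave 11 to 14 rises with Inf against control and 9 to 12 falls with IL-4/13 added to Inf. Titles share the numbers 1 to 3 across conditions, but nothing says that these mark a shared culture or day, and same-numbered libraries did not deviate together (18 pairs, r from -0.15 to 0.054). With a replicate block the count of rises with Inf stayed 13 and that of falls with IL-4/13 added to Inf stayed 11, and no count of called genes among the 36 changed in the 6 contrasts. Among the other genes named, the fall of Akr7a5 with IL-4/13 alone was lost under the block. Limits are the 3 libraries per condition, the low counts of Gpx3 and Cyba, and reads shared between relatives for Gstm1, Gpx4, Gstp1 and Me1.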
